A study of Mus musculus with 9 samples.

Results

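The genes described here are 10 genes of MHC class I processing and presentation, chosen by name for their known roles, with earlier results of these data known: H2-K1, H2-D1, B2m, Tap1, Tap2, Tapbp, Psmb8, Psmb9, Psmb10 and Nlrc5. They were read from a table of 31685 genes measured by RNA sequencing in the jejunum of 9 wild-type C57BL/6J mice, which the methods give as adult males of 6–8 weeks. The control group (3 mice) had no treatment, the TAI group (3 mice) received 12 Gy of X-rays to the abdomen under anesthesia, with the rest of the body shielded, and then PBS, and the TAI/IVIg group (3 mice) received the same irradiation followed within 1 h by 500 mg/kg of intravenous immunoglobulin. IVIg is IgG pooled from human donors, and its injection was repeated every 3 days. All tissue was taken on day 3, so the groups show a single time point and there was no group given IVIg without irradiation.

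MHC class I molecules display short peptides from the inside of a cell on its surface, where CD8+ T cells inspect them. The peptides are cut from cellular proteins by the proteasome, carried into the endoplasmic reticulum by a transporter, and loaded onto a heavy chain paired with beta-2-microglobulin. Interferons raise the expression of most of these genes, and in the intestine class I molecules are made by epithelial cells as well as by leukocytes.

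The members divide by role. H2-K1 and H2-D1 encode the classical heavy chains, and B2m encodes the light chain that every classical class I molecule needs. Tap1 and Tap2 encode the 2 subunits of the peptide transporter, and Tapbp encodes tapasin, which holds empty class I molecules at that transporter. Psmb8, Psmb9 and Psmb10 encode the catalytic subunits of the immunoproteasome, which replace Psmb5, Psmb6 and Psmb7 of the constitutive proteasome. Nlrc5 encodes the transactivator that is recruited to class I promoters.

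Most of the members lie together. On GRCm38, 7 of the 10 are on chromosome 17, with Tapbp at chr17:33915899-33929292 (+ strand), H2-K1 at chr17:33996017-34000347 (− strand) and H2-D1 at chr17:35262730-35267499 (+ strand). Between these, Psmb9 (chr17:34181987-34187764, − strand), Tap1 (chr17:34187553-34197225, + strand), Psmb8 (chr17:34197721-34201454, + strand) and Tap2 (chr17:34203527-34216321, + strand) follow each other. B2m is at chr2:122147686-122153083 (+ strand), and chromosome 8 holds Nlrc5 (chr8:94434356-94527272, + strand) and Psmb10 (chr8:105935735-105938444, − strand). Exons of Tap1 and Psmb9 overlap on opposite strands over 212 bp, Psmb8 overlaps 498 bp of exons of Gm20496, and Tapbp shares 149 bp with Zbtb22 on its own strand. Whether the counting used strand is not given in the sources used here, so reads in these stretches cannot be assigned with certainty. H2-K1, H2-D1 and the H2-Q and H2-T genes are close copies of each other, and the split of reads between them is likewise uncertain.

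Class I promoters carry an upstream module to which Nlrc5 is recruited through DNA-bound factors, among them CREB-family proteins, which bind TGACG, and NF-Y, which binds CCAAT. RefSeq windows (GRCm38.p6) of the 250 bases before the start were at hand for 8 of the 10 members, and Tap2 and Nlrc5 had none in the table used. The start is that of RefSeq. For H2-D1, Tapbp, Psmb8 and Psmb9 the window lies wholly inside the gene span given above, and so not upstream of the outermost start. The stretches nearest the start are shown for the light chain and for a heavy chain because both boxes stand in each. Capitals mark TGACG and CCAAT on either strand (ATTGG is CCAAT read on the other strand) and, in B2m, the interferon-response letters (GAAA, any 2 bases, GAAA), which spanned bases −139 to −130 before the start.
B2m, chr2:122147537-122147686, + strand: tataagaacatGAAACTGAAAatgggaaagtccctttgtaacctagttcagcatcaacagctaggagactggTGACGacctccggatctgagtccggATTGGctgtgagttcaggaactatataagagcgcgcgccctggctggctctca
H2-K1, chr17:34000348-34000497, − strand: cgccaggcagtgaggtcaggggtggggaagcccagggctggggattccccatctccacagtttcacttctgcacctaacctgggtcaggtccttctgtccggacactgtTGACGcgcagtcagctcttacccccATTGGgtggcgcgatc

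The boxes stood 20 bases apart, TGACG first, in all 3 genes of the surface molecule. The 30 bases of this pair are set side by side to show what the genes share, with the boxes in capitals. The H2-D1 stretch lies in the first exon of a longer GENCODE transcript.
H2-K1, chr17:34000359-34000388, − strand: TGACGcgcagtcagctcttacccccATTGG
H2-D1, chr17:35262993-35263022, + strand: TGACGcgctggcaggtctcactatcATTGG
B2m, chr2:122147609-122147638, + strand: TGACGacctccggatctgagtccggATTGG
The pair began 41 bases before the start in H2-K1, 101 bases before it in H2-D1 and 78 bases before it in B2m. RefSeq gives H2-K1 a further start, from which the pair began 55 bases upstream. H2-K1 and H2-D1 were identical at 23 of 30 bases, and each shared fewer with B2m (13 for H2-K1 and 12 for H2-D1), of which only 3 and 2 lay between the boxes. This spacing, TGACGNNNNNNNNNNNNNNNNNNNNATTGG searched on both strands, was chosen after the letters of these promoters were seen. It occurred in 30 of 32851 windows of the same length (0.0913%), which belong to 26 of 27025 genes, H2-M3 among them. The boxes alone are common, with TGACG in 17.8% and CCAAT in 33.8% of windows. The interferon-response letters, present in 2.98% of windows, were found among the members in B2m only, and the interferon gamma-response letters TTCNNNGAA, present in 7.02%, in Psmb8 only. Only exact letters were searched, so elements that differ from them by a base were not sought, and no member is shown to lack such an element. A match in letters is a description of the sequence and not a bound site.

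The libraries held between 16284386 and 18244535 reads assigned to genes (median 17312367), recovered from the FPKM values (reads divided by gene length and by the total of the library). The tissue is labelled jejunal epithelial tissue. Markers of absorptive epithelium were high in every library, and their sum differed by group. The summed FPKM of 8 markers was 5773 to 7889 in control, 10198 to 11138 in TAI and 13439 to 15402 in TAI/IVIg mice, without overlap. Of the 8, 3 were called higher and 1 lower in TAI and 5 higher and 1 lower in TAI/IVIg mice against control. The markers did not move as one. Mean FPKM in control, TAI and TAI/IVIg mice was 312, 2276.2 and 3235.4 for Apoa4, 437, 1238.1 and 3509.5 for Fabp1 and 1770.7, 2873.9 and 3120.1 for Krt20. Epcam and Alpi also had higher means in the irradiated groups. The means were 994, 953 and 1016.1 for Vil1, 246, 271 and 262 for Cdh1, and 1838.1, 1207.3 and 1206.1 for Krt8. The part of these abundant genes in the members' values per total of reads was not tested. In addition, 6 markers of stroma and smooth muscle summed to between 88.2 and 552, and 5 general leukocyte markers to between 13.5 and 269, so the RNA was not of epithelium alone. The 3 B cell genes Ms4a1, Cd79a and Cd79b summed to an FPKM of 288 in control mouse 3, 53.9 in TAI mouse 3 and 55.1 in TAI/IVIg mouse 2, against 1.16 to 39.2 in the other mice. Results below are therefore also given without those 3 mice where this changes them, a choice made after the values were seen. In such bulk tissue, fewer cells of a type and less RNA per cell cannot be told apart.

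All 10 members passed the filter on low values, which kept genes that reached 1 FPKM in 3 or more mice. Their levels per gene length spanned a wide range in control mice, from a mean of 3010.5 ± 227 FPKM (SD, n = 3) for B2m to 11.9 ± 2.95 FPKM for Nlrc5. H2-K1 (1024.8 ± 53.9 FPKM) and H2-D1 (996 ± 40.9 FPKM) followed B2m, and their mice overlapped with each other but not with those of any other member. Next came Tapbp (117 ± 13.4 FPKM) and Psmb10 (99.5 ± 7.22 FPKM), again with overlapping mice, then Tap1, Psmb8 and Psmb9, where each overlapped with its neighbor. Tap2 and Nlrc5 stood at the bottom and overlapped. B2m, H2-K1, H2-D1 and Tapbp held the first 4 places in the TAI and TAI/IVIg groups as well, and Nlrc5 the last. Counting error was small beside the spread between mice, since even Nlrc5 rested on 276 to 2233 reads per library and H2-K1 on 34831 to 55867.

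**Figure D1:**
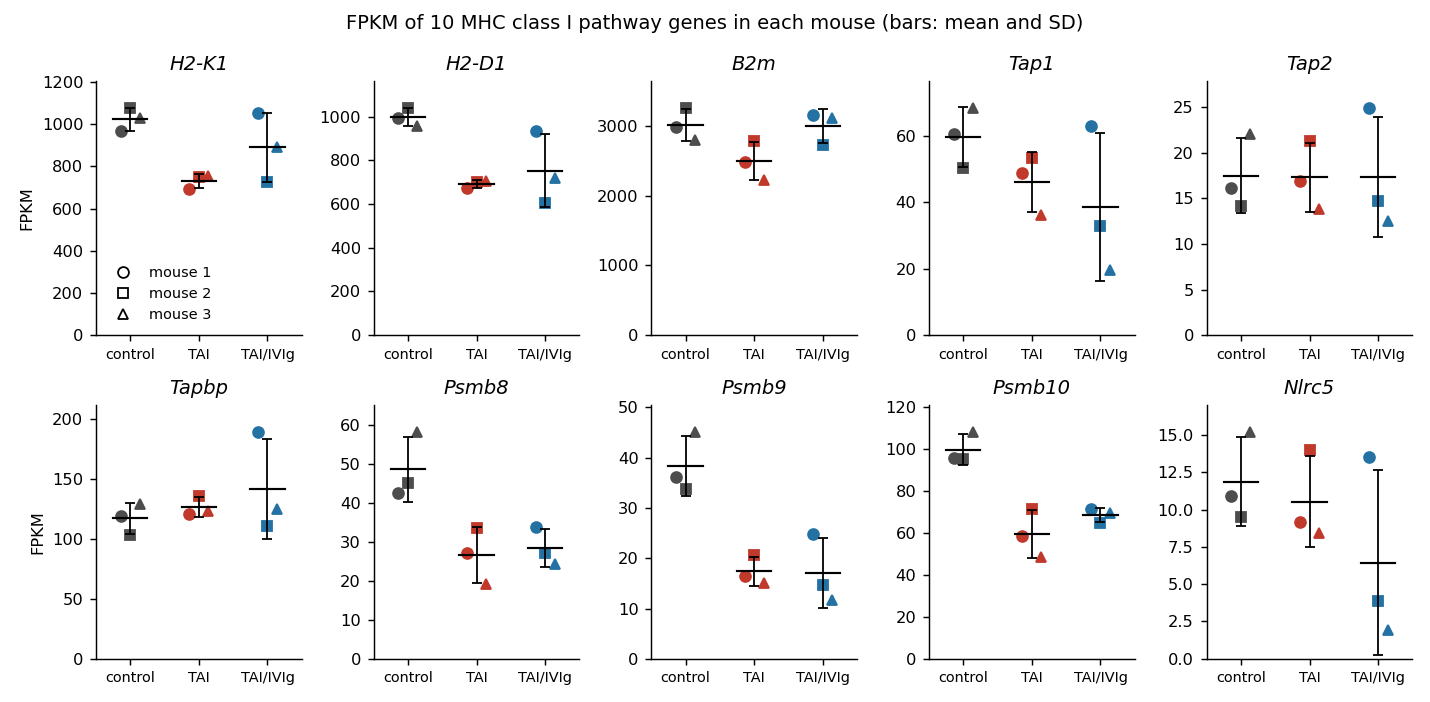
FPKM (vertical axis, starting at 0) of each of the 10 genes in each mouse, with control, TAI and TAI/IVIg side by side. The marker shape gives the mouse number, and bars give the mean and SD of 3 mice. All 6 irradiated mice lie below the control mice for Psmb8, Psmb9, Psmb10 and H2-D1, and TAI/IVIg mouse 1 is the highest of its group in every panel.

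The first comparison, TAI against control, asks how the class I genes stood 3 days after irradiation. The 3 immunoproteasome genes fell, none of the members rose, and the heavy chains were lower in every TAI mouse without passing the threshold in the limma fit on log2(FPKM + 1). Over all 13056 genes tested, 34.9% were called at a Benjamini-Hochberg adjusted p under 0.05, 26.1% lower and 8.81% higher. A count of 3 lower among 10 members is thus close to the share among all genes and is no result about the members as a set. The TAI mice all lay below the control mice for 6 members, beside 38.0% of all genes, and 5 members passed an unadjusted p of 0.05, beside 46.2%. The members' median log2 fold change was −0.43 and that of all genes tested −0.23. In FPKM the median of all genes was itself below 0, and setting the library medians equal brought it to 0.032 and the split of all calls to 13.9% higher and 12.9% lower. On that scale the members' median was −0.09 and 0 of 10 were called, so the calls below hold relative to the total of reads and not relative to the median gene.

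Among the immunoproteasome genes, Psmb9 (the caspase-like position) was at 36.1, 33.8 and 45.1 FPKM in the control mice and at 16.4, 20.7 and 15.1 FPKM in the TAI mice. Every TAI mouse was well below every control mouse. Its log2 fold change was −1.10 ± 0.25 (SE; limma adjusted p = 0.0115), a level 2.21-fold lower on the mean FPKM. Psmb8 (the chymotrypsin-like position) was at 42.5, 45.0 and 58.1 FPKM in control mice and at 27.0, 33.4 and 19.1 FPKM in TAI mice, again without overlap. It fell by 0.87 ± 0.22 on the log2 scale (limma adjusted p = 0.0162). Psmb10 (the trypsin-like position) was at 95.4, 95.2 and 108 FPKM in control mice and at 58.3, 71.2 and 48.7 FPKM in TAI mice. The groups did not overlap here either, and TAI mouse 3 was the lowest for all 3 subunits. The log2 fold change of Psmb10 was −0.75 ± 0.15 (limma adjusted p = 0.00699). With library medians set equal the changes were −0.77 for Psmb9 (adjusted p = 0.0577), −0.53 for Psmb8 (adjusted p = 0.0983) and −0.41 for Psmb10 (adjusted p = 0.139), all by limma.

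Leukocytes also make immunoproteasomes, and their markers stood beside these values. The 5 general leukocyte markers were lower in point estimate in TAI mice (0 of 5 called, median log2 fold change −1.15), with a summed level of 38.1 to 269 FPKM in control mice, 18.0 to 64.4 FPKM in TAI mice and 13.5 to 71.7 FPKM in TAI/IVIg mice, and none of them was at 0. Of 6 tested markers of macrophages and dendritic cells, 2 were called lower and 1 higher in TAI mice (median −0.20). None was called of 10 tested T and NK cell markers (median −0.77) or 6 B and plasma cell markers (median −1.68). Of 3 tested neutrophil markers, 1 was called higher (median −0.26). The shares of all genes were 26.1% lower and 8.81% higher. Without the mouse richest in B cell genes in each group, which leaves 2 mice per group, the log2 fold changes were −0.89 for Psmb9, −0.53 for Psmb8 and −0.56 for Psmb10, and none was called (limma adjusted p of 0.128, 0.139 and 0.0739). In that fit the general leukocyte markers had a median of −0.78, with 1 of 5 called lower. Over all 13056 genes tested, the same fit called 1188 lower and 572 higher, against 3411 and 1150 with all mice. The part of the leukocytes in the difference was not tested.

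The heavy chains were alike. H2-K1 was at 968, 1076 and 1030 FPKM in control mice and at 692, 748 and 755 FPKM in TAI mice. H2-D1 was at 994, 1038 and 956 FPKM in control mice and at 672, 702 and 705 FPKM in TAI mice. For both genes the 3 TAI mice lay close to each other and below all control mice. The log2 fold changes were −0.49 ± 0.17 for H2-K1 (limma adjusted p = 0.0551) and −0.52 ± 0.18 for H2-D1 (limma adjusted p = 0.05, above the threshold before rounding). Both passed in several other fits, for example among genes with a mean FPKM of at least 5 (adjusted p of 0.0324 and 0.0312). With library medians set equal they were at −0.14 and −0.18, far from the threshold. B2m was at 2984, 3250 and 2798 FPKM in control mice and at 2478, 2774 and 2229 FPKM in TAI mice, so that the highest TAI mouse lay just below the lowest control mouse. Its log2 fold change was −0.27 ± 0.18 (limma adjusted p = 0.266), near the median of all genes, and was 0.069 with library medians set equal.

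The transporter and tapasin were not called. Tap1 was at 60.5, 50.3 and 68.2 FPKM in control mice and at 48.8, 53.3 and 36.1 FPKM in TAI mice (log2 fold change −0.37 ± 0.36, limma adjusted p = 0.44). Tap2 was at 16.2, 14.2 and 22.1 FPKM in control mice and at 16.9, 21.3 and 13.8 FPKM in TAI mice (log2 fold change −0.0094 ± 0.27). For both subunits the mice of the groups overlapped. Tapbp was at 119, 103 and 129 FPKM in control mice and at 121, 136 and 123 FPKM in TAI mice, and its log2 fold change of 0.12 ± 0.20 was the only one of the members above 0. The transactivator Nlrc5 was at 10.9, 9.52 and 15.2 FPKM in control mice and at 9.17, 14 and 8.43 FPKM in TAI mice. Its groups overlapped over most of their range (log2 fold change −0.16 ± 0.50, limma adjusted p = 0.814).

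**Figure D2:**
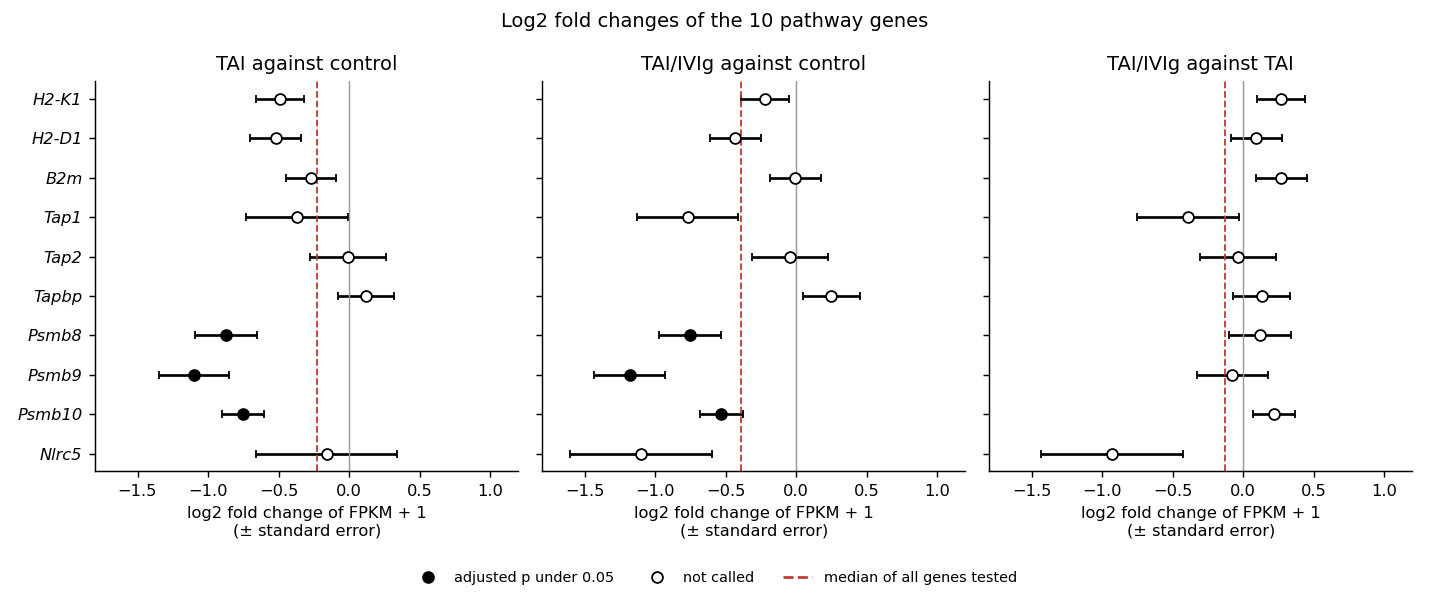
Log2 fold change of FPKM + 1 (horizontal axis, with its standard error) of the 10 genes in the 3 comparisons. Filled points passed an adjusted p of 0.05 in limma, and the dashed line is the median of all 13056 genes tested. Psmb8, Psmb9 and Psmb10 are filled in both comparisons with control, and no gene is filled in TAI/IVIg against TAI.

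The second comparison sets TAI/IVIg mice against the same control mice, and its values are not independent of the first. Again the 3 immunoproteasome genes were called lower and none of the members higher, beside 46.4% of all genes called, 37.4% lower and 9.06% higher. The mice did not overlap with control, and were lower, for 4 members (44.3% of all genes), and 4 passed an unadjusted p of 0.05 (54.6% of all genes). The members' median log2 fold change was −0.48 and that of all genes −0.39. Psmb9 was at 24.9, 14.7 and 11.7 FPKM in TAI/IVIg mice, Psmb8 at 33.8, 27.2 and 24.4 FPKM, and Psmb10 at 71.5, 64.7 and 69.4 FPKM. None of these 9 values reached the lowest control value of its gene. The log2 fold changes were −1.18 ± 0.25 for Psmb9 (limma adjusted p = 0.00606), −0.75 ± 0.22 for Psmb8 (limma adjusted p = 0.0222) and −0.53 ± 0.15 for Psmb10 (limma adjusted p = 0.0197). With library medians set equal none of these was called, and Psmb10 stood at 0.06. Leaving out the mouse richest in B cell RNA in each group also left none called, with Psmb9 at −0.99, Psmb8 at −0.59 and Psmb10 at −0.43 (limma adjusted p of 0.0708, 0.0777 and 0.0909). The general leukocyte markers had a median of −1.40 with all mice (0 of 5 called) and −1.35 without those mice (5 of 5 called lower), and their part in the difference was not tested. Over all 13056 genes, 3697 were called lower and 806 higher without the B cell-rich mice, against 4880 and 1183 with all mice. On equal library medians, Tapbp was the only member called, at 0.84 (limma adjusted p = 0.0313), where 20.7% of all genes were called higher and 15.3% lower. Its FPKM values in TAI/IVIg mice were 189, 111 and 125, and mice 2 and 3 lay within the control range. Without the rescaling its change was 0.25 and was not called.

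H2-K1 was at 1054, 726 and 894 FPKM in TAI/IVIg mice, a spread from the control level down to that of TAI mice. H2-D1 was at 932, 603 and 718 FPKM, below the control mice in each, and its change of −0.43 ± 0.18 on the log2 scale was not called (limma adjusted p = 0.0779). B2m was at 3158, 2720 and 3112 FPKM and overlapped with control (log2 fold change −0.0071 ± 0.18). Tap1 was at 62.9, 32.8 and 19.5 FPKM (log2 fold change −0.77 ± 0.36, limma adjusted p = 0.107), and Nlrc5 at 13.5, 3.89 and 1.94 FPKM (log2 fold change −1.10 ± 0.50, limma adjusted p = 0.1). For both, mouse 1 was within the control range and the other mice below it. Tap2, at 24.9, 14.7 and 12.5 FPKM, had mouse 1 above and mouse 3 below all control mice. Without TAI/IVIg mouse 1, the count of members called lower was 6, with Nlrc5 at −1.74 (limma adjusted p = 0.00499), Tap1 at −1.19 (limma adjusted p = 0.01) and H2-D1 at −0.60 (limma adjusted p = 0.0204) added. Without TAI/IVIg mouse 2 or without control mouse 3 the count was 1. Over all 13056 genes, 4135 were called lower without TAI/IVIg mouse 1, against 4880 with all mice. Without TAI/IVIg mouse 2 that number was 4989, and without control mouse 3 it was 3584.

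The third comparison, TAI/IVIg against TAI, asks what IVIg added after irradiation. None of the 10 members was called by limma (smallest adjusted p = 0.435), none passed an unadjusted p of 0.05, and limma voom on the recovered reads also called 0. Among all genes tested 0 were called (0.0%), and 1680 (12.9%) passed the unadjusted threshold. The members' median log2 fold change was 0.11 and that of all genes −0.13. For each of the 10 members the mice of the groups overlapped. Nlrc5 had the widest difference, −0.93 ± 0.50 (limma adjusted p = 0.435), and H2-K1 and B2m each stood at 0.27, with SEs of 0.17 and 0.18.

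The TAI/IVIg mice stood far apart from each other for some members. The highest mouse had 6.95 times the Nlrc5 FPKM of the lowest, against 1.60 times in control and 1.66 times in TAI mice. The same ratio was 3.22 for Tap1, 2.13 for Psmb9 and 1.98 for Tap2 in TAI/IVIg mice, but 1.11 for Psmb10 and 1.16 for B2m. Mouse 1 was the highest of the group for 10 of 10 members, where it was the highest for 25.9% of all genes tested. The lowest value belonged to mouse 2 for 5 members, both heavy chains among them (12.0% of all genes), and to mouse 3 for 5 (42.3%). In the TAI group, mouse 2 was the highest for 8 members (48.7% of all genes) and mouse 3 the lowest for 7 (36.2%), and in the control group mouse 3 was the highest for 7 (49.1%). These orders are described without a test, as members share their library and are not independent.

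Taken as deviations from the group mean over the 9 mice, the members formed a tighter and a looser set. Nlrc5 went with Psmb9 (Pearson r = 0.989), Tap1 (r = 0.967) and Tap2 (r = 0.936), and Tap2 with Psmb9 (r = 0.976). H2-K1 and H2-D1 went with each other (r = 0.947) and less with Nlrc5 (r of 0.538 and 0.640). B2m had no r above 0.625 with any member. The points of such an r share their library and its scaling, exons of Tap1 and Psmb9 overlap, and TAI/IVIg mice 1 and 3 lie far out, so these are descriptions. TAI/IVIg mouse 3 also had the lowest sum of stroma and smooth muscle markers (88.2 FPKM, against 211 and 393 in mice 2 and 1), and mouse 2 the most B cell RNA of its group. The part of tissue makeup in the order of the mice was not tested.

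**Figure D3:**
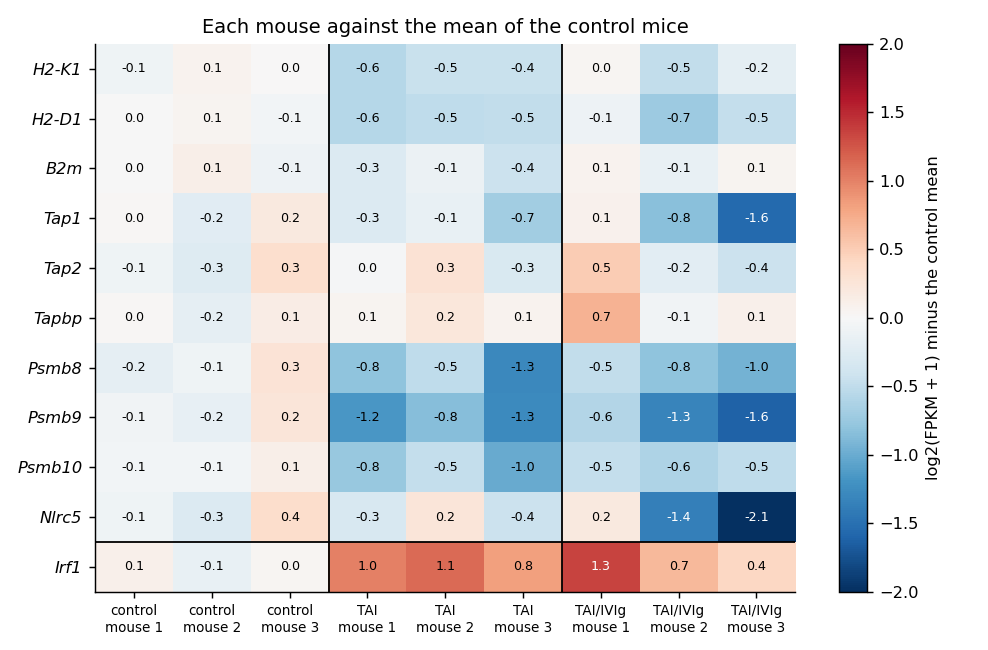
Difference of each mouse (columns, by group) from the control mean in log2(FPKM + 1), in color and printed in each cell, for the 10 genes and for Irf1. TAI/IVIg mouse 3 reaches −2.11 for Nlrc5 where mouse 1 is at 0.20, and Irf1 is at 0.41 or more in the 6 irradiated mice.

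The immunoproteasome can also be read against the constitutive proteasome it replaces. All 14 constitutive 20S subunit genes fell in TAI mice against control, with a median log2 fold change of −1.41 and a range of −1.67 to −1.15, and all 14 fell in TAI/IVIg mice (median −1.53). The count was 14 of 14 as well with library medians set equal, with a replicate block and without the mice richest in B cell RNA. Psma1 (alpha ring) fell from 59.6, 62.0 and 64.6 FPKM to 19.1, 21.8 and 19.2 FPKM. The beta subunits Psmb3 and Psmb4 fell by 1.67 ± 0.15 and 1.43 ± 0.12 on the log2 scale (limma adjusted p of 0.000315 and 0.000269). Of the partners replaced in the immunoproteasome, Psmb7 fell by 1.54, and Psmb5 and Psmb6 each fell by 1.28.

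The ratio of Psmb10 to Psmb7 FPKM within a library, which no scaling of libraries can change, was 3.92, 3.19 and 3.88 in control mice, 6.94, 7.33 and 5.96 in TAI mice and 11.5, 7.78 and 12.8 in TAI/IVIg mice. The groups did not overlap and stood in that order. The log2 difference was 0.88 ± 0.13 (SE) for TAI against control, 1.52 ± 0.24 for TAI/IVIg against control and 0.64 ± 0.24 for TAI/IVIg against TAI. Each gave a 2-sided exact permutation p of 0.1, the smallest that 3 against 3 mice allow (0.225 after Benjamini-Hochberg adjustment over 9 ratio tests), so the design could not reach 0.05. Psmb8 to Psmb5 stood at 0.569, 0.512 and 0.628 in control mice, 0.871, 0.915 and 0.542 in TAI mice and 1.29, 0.720 and 0.710 in TAI/IVIg mice. TAI mouse 3 fell within the control range, and the exact permutation p was 0.3 for TAI and 0.1 for TAI/IVIg against control. Psmb9 to Psmb6 overlapped between all groups (log2 differences of 0.17 and 0.18 from control, exact permutation p of 0.4 and 0.9). Over the 3 pairs, the mean log2 ratio was 0.49 ± 0.17 above control in TAI mice and 0.77 ± 0.26 above it in TAI/IVIg mice (exact permutation p of 0.1 for each), and 0.28 ± 0.28 higher in TAI/IVIg than in TAI mice (exact permutation p = 0.5).

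**Figure D4:**
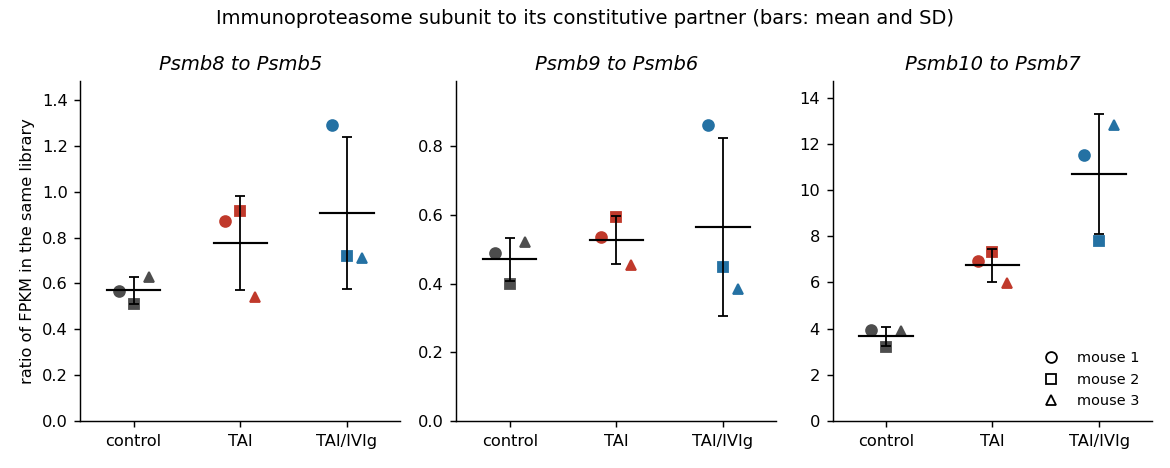
Ratio of the FPKM of each immunoproteasome gene to that of its constitutive partner (vertical axes, starting at 0) in each mouse, with the mean and SD of 3 mice. The Psmb10 to Psmb7 ratio is 3.19 to 3.92 in control mice and 7.78 to 12.8 in TAI/IVIg mice, without overlap, while Psmb9 to Psmb6 overlaps between all groups.

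The proteasome activators and assembly factors followed the core, with 8 of 9 called lower in TAI mice (median −0.79). The assembly chaperone Pomp, which favors the immunoproteasome, fell from 40.0, 40.4 and 39.6 FPKM to 19.8, 21.9 and 22.3 FPKM. The interferon-inducible activator subunits Psme1 and Psme2 fell by 1.04 ± 0.14 and 0.72 ± 0.12 on the log2 scale (limma adjusted p of 0.0015 and 0.00348). Their ratio, Psme2 to Psme1, lay at 0.973 to 1.07 in control, 1.24 to 1.39 in TAI and 1.52 to 1.62 in TAI/IVIg mice, without overlap between the groups. Within the transporter, Tap1 to Tap2 lay at 3.09 to 3.74, 2.5 to 2.9 and 1.56 to 2.53 in the same order of groups, and H2-K1 to H2-D1 at 0.974 to 1.08, 1.03 to 1.07 and 1.13 to 1.25. These 3 ratios were not tested. On equal library medians 5 of the 9 activator and assembly genes were called lower, beside 12.9% of all genes. Without the mice richest in B cell RNA 2 were, Pomp and Psme1, beside 1188 of all 13056 genes.

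Of 11 other genes of peptide loading and trimming, 5 were called lower and none higher in TAI mice (median −0.48), and 7 were called lower in TAI/IVIg mice, beside 26.1% and 37.4% of all genes called lower. The same shares, with 8.81% and 9.06% called higher, stand behind the counts of the other lists. The chaperones of the loading complex led. Pdia3, the disulfide isomerase bound to tapasin, was at 408, 518 and 355 FPKM in control mice and at 123, 136 and 123 FPKM in TAI mice. Calr, calreticulin, was at 551, 802 and 477 FPKM in control mice and at 172, 182 and 191 FPKM in TAI mice. Neither gene had overlapping groups, and their log2 fold changes of −1.72 ± 0.16 and −1.71 ± 0.19 (limma adjusted p of 0.000387 and 0.000757) were larger than those of any member. Both serve the folding of many glycoproteins besides class I. Blmh, a cytosolic peptidase, fell by 0.88, and the other genes called were Canx, the chaperone calnexin, and Thop1, an oligopeptidase. Erap1, which trims peptides in the endoplasmic reticulum, was not called (−0.48 ± 0.18, limma adjusted p = 0.0594, and 0.0283 with a replicate block). On equal library medians, 3 of the 11 were called lower, beside 12.9% of all genes.

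The other class I and class I-like genes went both ways, with 4 called higher and 4 lower of 16 tested (19 in the list). H2-Q2 was at 350, 303 and 234 FPKM in control mice, at 469, 452 and 492 FPKM in TAI mice and at 621, 608 and 763 FPKM in TAI/IVIg mice. Each group lay above the one before it, without overlap. H2-Q2 rose by 0.69 ± 0.18, H2-Q1 by 0.76 ± 0.18 and H2-Bl by 0.88 ± 0.22 on the log2 scale in TAI against control (limma adjusted p of 0.0182, 0.0139 and 0.0164). These calls were lost when some single mice were left out. For H2-Q2 these were control mouse 3, TAI mouse 1 or TAI mouse 3 (limma adjusted p of 0.0535, 0.0648 and 0.0541). For H2-Bl they were control mouse 2, control mouse 3 or TAI mouse 3 (limma adjusted p of 0.0588, 0.0578 and 0.0544). For H2-Q1 it was TAI mouse 1 (limma adjusted p = 0.0558). Fcgrt, the neonatal Fc receptor that binds IgG and albumin and pairs with B2m, was the other gene called higher, at 26.2, 25.8 and 25.3 FPKM in control mice, 34.7, 38.5 and 36.3 FPKM in TAI mice and 35.8, 50.0 and 55.4 FPKM in TAI/IVIg mice. It rose by 0.49 ± 0.16 in TAI mice (limma adjusted p = 0.0435), and was singled out after its values were seen. H2-Q7 fell from 6.23, 8.01 and 12.8 FPKM to 1.07, 1.86 and 1.47 FPKM, and H2-Q6 from 5.71, 4.97 and 7.65 FPKM to 0.728, 1.80 and 1.21 FPKM. H2-T22, a ligand of some gamma-delta T cells, fell by 1.26 ± 0.31, and H2-T10 by 1.13 ± 0.34 (limma adjusted p of 0.0147 and 0.0302, the latter 0.0543 with a replicate block). On equal library medians, all 4 rises were still called, and of the falls those of H2-Q6 and H2-Q7, beside 13.9% of all genes called higher and 12.9% lower. Without the mice richest in B cell RNA they were 0 higher and 2 lower, with H2-Q2 at 0.50 (limma adjusted p = 0.133). That fit called 572 higher and 1188 lower of all 13056 genes. TAI/IVIg against control gave 4 calls up and 7 down, and those up were again H2-Q1 (1.13), H2-Q2 (1.18), H2-Bl (1.29) and Fcgrt (0.82). None of the 16 was called in TAI/IVIg against TAI.

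**Figure D5:**
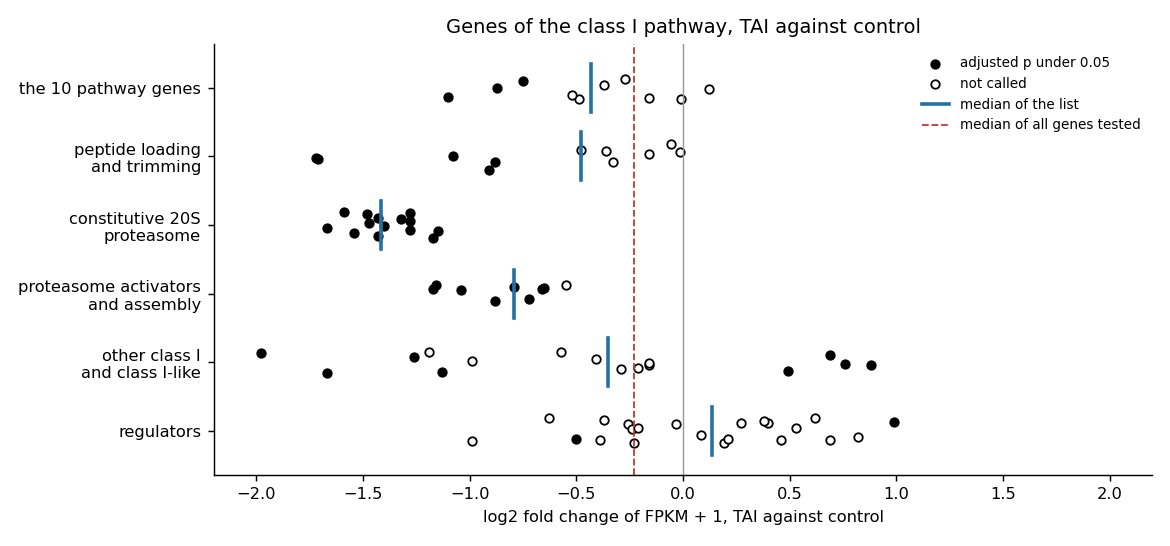
Log2 fold change of FPKM + 1 in TAI against control mice (horizontal axis) for the tested genes of each list, a point per gene, filled where limma's adjusted p was under 0.05. Blue bars are list medians and the dashed line the median of all genes tested (−0.23). The constitutive 20S genes sit between −1.67 and −1.15, and the other class I genes spread from −1.98 to 0.88.

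The regulators of class I genes were mostly not called, with 1 higher and 1 lower of 22 tested (23 in the list). Irf1, an interferon-induced factor that acts on class I, Tap1 and Psmb9 promoters, was at 40.6, 34.1 and 38.7 FPKM in control mice, at 76.9, 84.1 and 67.1 FPKM in TAI mice and at 97.5, 59.9 and 50.3 FPKM in TAI/IVIg mice. All 6 irradiated mice were above the control mice. Irf1 rose by 0.99 ± 0.23 on the log2 scale in TAI mice (limma adjusted p = 0.0113) and by 0.80 ± 0.23 in TAI/IVIg mice (limma adjusted p = 0.019). Without the mice richest in B cell RNA the values were 1.09 and 0.89, with adjusted p of 0.0721 and 0.0764. The gene called lower was Nfyc, a subunit of NF-Y (−0.50 ± 0.15, limma adjusted p = 0.0339). That call was lost when control mouse 2 or 3 or any single TAI mouse was left out (limma adjusted p of 0.08 to 0.107) and without the mice richest in B cell RNA (limma adjusted p = 0.179), and the change was −0.18 on equal library medians. Rfx5, a subunit of the RFX complex bound at class I promoters, was at −0.39 ± 0.28 in TAI mice and −0.83 ± 0.28 in TAI/IVIg mice (limma adjusted p of 0.296 and 0.0356, the latter 0.0668 with a replicate block). In TAI/IVIg mice 2 regulators were called higher and 4 lower. On equal library medians 5 were called up in TAI mice, 10 in TAI/IVIg mice, and 0 down in either. Among all genes that setting called 13.9% higher and 12.9% lower in TAI mice, and 20.7% higher and 15.3% lower in TAI/IVIg mice. Ifng, which encodes interferon gamma, was below the filter, at no more than 0.178 FPKM in any mouse.

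Outside the lists, the genes whose log2(FPKM + 1) was most like that of the members over the 9 mice, by the mean Pearson r with all 10, were Gnl1 (0.725), Tle4 (0.724), Kctd6 (0.706), Nemp1 (0.700) and Pelo (0.694). Gnl1 was at 34.4, 28.3 and 36.5 FPKM in control mice, at 22.3, 23.6 and 19.0 FPKM in TAI mice and at 32.3, 18.2 and 19.6 FPKM in TAI/IVIg mice. It shared with H2-K1 and H2-D1 the low TAI group and the high TAI/IVIg mouse 1. Gnl1 was picked for its likeness over these same mice, so this is a description and was not tested.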

How the data were processed

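Jejunal RNA from 9 mice, 3 each in the control, TAI and TAI/IVIg groups, was analyzed, with groups taken from the sample labels. RNA was extracted with TRIzol and sequenced by a company. The authors deposited FPKM values with a column per mouse, all of which were used. The submitters' processing notes name FastQC, Trimmomatic, STAR, featureCounts and DESeq2 and the builds mm10 and GRCm38. The annotation, the use of strand and the handling of reads with several matches are not given in the sources used here. FPKM divides by the total of a library, so a rise of abundant genes lowers the values of all others.

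FPKM values of all 31685 rows (100%) could be turned back into whole reads per gene, within a tolerance of 0.01 reads. Recovered gene lengths agreed within 0.2% with the exons of GENCODE M21 (GRCm38) for 30661 of 31146 genes, so its coordinates were used. Symbols were paired with 31146 identifiers. The labels' numbers do not say that replicates are separate litters or batches, all samples carry the same batch label, and p-values measure the spread between these mice.

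The test was limma 3.58.1 (R 4.3.3) on log2(FPKM + 1), with a term per group, all 9 mice, a trended variance and Benjamini-Hochberg adjustment within each comparison over the genes that reached 1 FPKM in 3 or more mice. Fold changes on this scale understate those of low genes. Ratios were compared by 2-sided exact permutation tests. Mice of the same number deviated together between control and TAI (r of 0.271, 0.241 and 0.308), but not between TAI/IVIg and the other groups (r of −0.296 to 0.201). Mice of different numbers were not compared and no label states a pairing, so whether the numbers pair the mice is not known. The fit has no replicate block, and with a replicate block the members called remained 3, 3 and 0. Alternatives were another pseudocount, no filter or a higher one, equal library medians, quantile normalization, only the 6 mice compared, no trend, limma voom on the recovered reads, and each mouse left out. The steps were tested on simulated data. All 10 members were named, and from each wider list up to 3 genes per direction with the smallest adjusted p and no overlap between mice, with Psmb5, Psmb6, Psmb7, Psme1, Psme2, Irf1, Rfx5 and Ifng added. Some genes of the lists are not reported here. H2-T9 was not analysed here. The members and lists were chosen with earlier results of these data known.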

Additional observations from a re-analysis of the deposited data

How the results depend on the processing

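The 3 members called lower in TAI against control became 5 with a mean FPKM of at least 5, quantile normalization, only the 6 mice compared, no trend or limma voom on total reads, 1 with limma voom on median-ratio library sizes, and 0 with library medians set equal or without the mouse richest in B cell RNA in each group. Leaving out each mouse in turn gave 2 to 5. Calls lower among all 13056 genes were 3411 in the main fit and 2284 with quantile normalization. They were 3482 with only the 6 mice, 3421 with no trend and 3307 with voom on total reads. With a mean FPKM of at least 5 they were 2231 of 6398 genes. Median-ratio voom gave 1913, equal library medians 1687, and the fit without the B cell-rich mice 1188. With each mouse left out they ran from 1643 to 3695. In TAI/IVIg against control the 3 became 1 (Tapbp, called higher) when library medians were made equal or median-ratio voom was used, 0 without the B cell-rich mice, and 1 to 6 with each mouse left out. Calls higher among all 13056 genes were 2707 with equal library medians and 2419 with median-ratio voom. TAI/IVIg against TAI gave 0 in all settings, and the replicate block left the counts at 3, 3 and 0 and changed no call of a member, nor any of the wider lists' genes other than Erap1, H2-T10 and Rfx5. The mean log2 ratio of the immunoproteasome to the constitutive genes kept its sign in all settings run. With 3 mice per group, Tap1 and Nlrc5, with standard errors of 0.36 and 0.50, were not called in any of the 3 comparisons, and the 9 ratio tests could not go below a p of 0.1.

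These signs turned, each in a log2 fold change that was not called after turning, and the cause was not tested. With library medians set equal, TAI against control became 0.069 for B2m, 0.15 for Nlrc5 and 0.31 for Tap2, TAI/IVIg against control became 0.59 for B2m, 0.17 for H2-D1, 0.38 for H2-K1, 0.06 for Psmb10, 0.52 for Tap2, 0.13 for Nfyc and 0.20 for Psme2, and TAI/IVIg against TAI became 0.16 for Psmb9 and 0.21 for Tap2. With median-ratio voom they were 0.023 (B2m), 0.12 (Nlrc5) and 0.29 (Tap2), then 0.47 (B2m), 0.052 (H2-D1), 0.27 (H2-K1), 0.43 (Tap2), 0.022 (Nfyc) and 0.084 (Psme2), then 0.097 (Psmb9) and 0.14 (Tap2). With quantile normalization they were 0.11 (Nlrc5) and 0.23 (Tap2), then 0.28 (Tap2), then 0.041 (Tap2). Without the B cell-rich mice they were 0.14 (Nlrc5) and 0.30 (Tap2), then 0.0098 (B2m) and 0.21 (Tap2), then −0.061 (Psmb8). Leaving out each mouse in turn, TAI against control ran from −0.37 to 0.013 for Nlrc5 and from −0.16 to 0.16 for Tap2, TAI/IVIg against control from −0.059 to 0.061 for B2m and from −0.32 to 0.15 for Tap2, and TAI/IVIg against TAI from −0.075 to 0.24 for H2-D1, −0.086 to 0.30 for Psmb8, −0.37 to 0.15 for Psmb9, −0.31 to 0.16 for Tap2 and −0.098 to 0.28 for Tapbp. The log2 ratio of Psmb9 to Psmb6 ran from −0.18 to 0.41 in TAI/IVIg against control and from −0.34 to 0.24 in TAI/IVIg against TAI, and that of Psmb8 to Psmb5 from −0.081 to 0.35 in TAI/IVIg against TAI. For the single members the other settings kept the direction, with 15 gains and 9 losses of a call in TAI against control and 6 gains and 16 losses in TAI/IVIg against control.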

Other observations

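When each gene was read as its deviation from the group mean, the genes most like the members over the 9 mice, chosen after the values were seen, were Dhx58os (mean r = 0.773), Tra2a (0.773), Gm10813 (0.770), AW112010 (0.769) and Serpina3f (0.768). AW112010, an interferon-inducible transcript, was at 127, 116 and 128 FPKM in control mice, at 139, 190 and 116 FPKM in TAI mice and at 155, 81.3 and 70.5 FPKM in TAI/IVIg mice. Serpina3f, a protease inhibitor, was at 7.36, 1.18 and 0.859 FPKM in TAI/IVIg mice, in the same order as Nlrc5. Socs1, which damps interferon signals and was not called in any comparison, was at 12.3, 2.73 and 1.19 FPKM in those mice, against 5.76, 8.13 and 5.05 FPKM in TAI and 2.91, 2.12 and 4.55 FPKM in control mice. The granzyme gene Gzmb of cytotoxic lymphocytes had another order (chosen, like Socs1, after the values were seen), at 15.3, 9.43 and 15.3 FPKM in TAI/IVIg mice. It does not stand for its list. Of 10 tested T and NK cell markers, 8 had a log2 fold change below 0 and 2 above 0 in TAI against control (median −0.77).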
